A study of Mus musculus with 2 samples.

Results

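Cone phototransduction and the opsins were followed through 8 genes, Opn1sw, Opn1mw, Gnat2, Gnb3, Gngt2, Pde6c, Pde6h and Arr3, picked by gene symbol from the 32227 genes of the deposited matrices. All 8 were detected in both libraries. The data are single-nucleus RNA-seq of whole mouse retina at postnatal day 21, recorded as strain C57 BL/6J, with 1 library per genotype. The Cre− library (labelled WT) came from age-matched animals bred from Cre− parents, with no statement on whether they carried floxed alleles. The Tet tcKO library came from animals homozygous for loxP alleles of Tet1, Tet2 and Tet3 that carried the Chx10::Cre-GFP transgene. This transgene drives Cre in retinal progenitor cells and can be mosaic, and the breeders were in-crossed to carry 2 copies of it. Nuclei of 2 dissociation pools entered each genotype's reaction, but the pool of a nucleus is not recorded, so each genotype is 1 sample. No test between genotypes was possible, and the 95% intervals below describe counting error alone, leaving out animals and preparations. Because every nucleus of a genotype is in its own library, genotype and library preparation cannot be told apart.

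Cones are the photoreceptors of daylight and colour vision. In them, light activates an opsin, the opsin activates the G protein transducin, transducin relieves the inhibition of a phosphodiesterase that degrades cyclic GMP, and the drop in cyclic GMP closes the cation channel of the outer segment. Arrestin then binds the opsin and ends the signal. Rods use the same chain with their own paralogues of most of these proteins. In the mouse retina many cones carry both the short-wavelength and the medium-wavelength opsin, in amounts that vary from ventral to dorsal retina. TET enzymes oxidise methylated cytosine, the modified base found mainly at CG dinucleotides.

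In the GRCm39 genome with the GENCODE annotation, Opn1sw lies on the minus strand at chr6:29376670-29388467 and Opn1mw on the plus strand at chrX:73171070-73194366. The transducin genes are Gnat2 at chr3:107999932-108008748 on the plus strand, Gnb3 at chr6:124811202-124817238 on the minus strand and Gngt2 at chr11:95725953-95736565 on the plus strand. The phosphodiesterase genes Pde6c, at chr19:38121229-38172406, and Pde6h, at chr6:136900830-136945863, lie on the plus strand, as does Arr3, the cone arrestin gene, at chrX:99649101-99662099. Of the 8, 5 overlap a gene on the opposite strand. These partners are Calu at Opn1sw, the pseudogene Gm6758 at Opn1mw, Abi3 at Gngt2, the long non-coding RNA gene Gm32440 at Pde6c and Arhgdib at Pde6h. The sources used here do not state if counting used strand, so counts of these 5 carry that uncertainty.

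The 250 bases upstream of the annotated start of 4 members are printed because their transcripts took different courses between the libraries. Opn1sw was 6.04-fold higher in Tet tcKO over all nuclei, Opn1mw 1.36-fold higher and Arr3 2.17-fold higher, while Pde6h was 2.61-fold lower. Each is written 5′ to 3′ on the strand of its gene, and capitals mark CG dinucleotides and TAATC in that orientation or as its reverse complement GATTA, the core recognised by photoreceptor homeodomain factors such as CRX. The windows are chr6:29380513-29380762 (minus) for Opn1sw, chrX:73170820-73171069 (plus) for Opn1mw, chrX:99648851-99649100 (plus) for Arr3 and chr6:136931270-136931519 (plus) for Pde6h.
Opn1sw: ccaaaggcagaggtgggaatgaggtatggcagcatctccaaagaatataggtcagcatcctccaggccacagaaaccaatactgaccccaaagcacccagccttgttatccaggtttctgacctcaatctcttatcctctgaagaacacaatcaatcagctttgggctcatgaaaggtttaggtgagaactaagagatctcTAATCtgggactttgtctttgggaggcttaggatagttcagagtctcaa
Opn1mw: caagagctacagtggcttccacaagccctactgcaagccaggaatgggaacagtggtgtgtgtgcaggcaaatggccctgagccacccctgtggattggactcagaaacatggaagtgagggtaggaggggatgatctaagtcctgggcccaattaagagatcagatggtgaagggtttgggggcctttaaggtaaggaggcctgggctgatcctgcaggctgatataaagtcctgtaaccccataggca
Arr3: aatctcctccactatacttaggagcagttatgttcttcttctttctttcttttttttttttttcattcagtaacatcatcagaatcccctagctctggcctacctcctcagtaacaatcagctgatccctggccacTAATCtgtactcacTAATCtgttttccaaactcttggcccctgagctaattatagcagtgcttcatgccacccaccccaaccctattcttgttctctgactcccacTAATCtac
Pde6h: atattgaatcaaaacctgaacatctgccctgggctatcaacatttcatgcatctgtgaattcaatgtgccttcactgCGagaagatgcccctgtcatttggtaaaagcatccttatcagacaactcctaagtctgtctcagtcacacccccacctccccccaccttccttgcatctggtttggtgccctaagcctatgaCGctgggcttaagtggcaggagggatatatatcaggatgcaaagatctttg
The windows of Opn1sw, Opn1mw and Arr3 held 0 CG dinucleotides, and that of Pde6h held 2. Over 21770 protein-coding promoters the median was 8, and over the 8 members it was 1.5, from 0 to 9. TAATC on either strand was present in the windows of 5 of the 8 members, with 3 matches at Arr3, 2 at Gnat2 and 1 each at Opn1sw, Gnb3 and Pde6c, against 20.4% of all protein-coding promoters. The 4 members that were highest in fold, Opn1sw, Gngt2, Gnat2 and Gnb3, included windows with and without a match. These letters describe the windows only, and no methylation or binding was measured in these libraries.

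Depth differed between the libraries. Cre− had 7357 nuclei and 11510585 UMIs (unique molecular identifiers, each standing for 1 captured transcript), at a median of 1107 a nucleus. Tet tcKO had 6766 nuclei and 16590747 UMIs, at a median of 1836.5. The 13 mitochondrial genes gave 5.47% of Cre− and 1.76% of Tet tcKO UMIs, and its part in the results was not tested. The libraries shared 1 cell barcode. The transcripts of the targeted genes were not a check of deletion, since a 3′ count need not cover the deleted exons, and Tet1, Tet2 and Tet3 stood at 50.2, 105 and 180.4 CPM (counts per 1000000 UMIs) in the Cre− library against 61.2, 139 and 174 CPM in Tet tcKO. Cell type names are the authors' annotation, made from marker genes. It named 5214 Cre− nuclei rods and 265 cones, but 6 Tet tcKO nuclei rods and 3225 cones. In Cre− the cone name was not set apart by a summed list of 12 cone markers, 8 of them the members, which stood at 2080.4 CPM in rod-annotated and 2308 CPM in cone-annotated nuclei, while 10 rod markers summed to 8871 and 11342 CPM. Rod- and cone-annotated nuclei were therefore pooled as photoreceptors, 5479 in Cre− and 3231 in Tet tcKO, with median depths of 1046 and 1714 UMIs. In these, all 10 rod markers and all 12 cone markers were detected in both libraries, and their sums went from 9208 to 4791 CPM and from 2111 to 7387 CPM. The list of 11 bipolar markers, all detected, went from 3643 to 2817 CPM, and its part in the results was not tested.

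Of the members, 7 were higher in Tet tcKO than in Cre− over all nuclei and 1, Pde6h, was lower, each with an interval that left out 0 on the log2 scale. At a 2-fold limit, 6 were higher, against 3.18% of the 11158 genes at 10 CPM or more in a library, and 1 was lower, against 2.48%. The median log2 ratio of the 8 (Tet tcKO over Cre−) was 1.15, and that of all genes tested was 0.15. In pooled photoreceptors 6 were again 2-fold higher, against 6.67% of 11377 genes, and 0 were 2-fold lower, against 2.58%. There the median was 1.48, beside 0.23 for all genes tested. With each nucleus counting a gene only once, 4 of the 6 were still 2-fold higher in photoreceptors (share of all genes not given), and Gnb3 and Arr3 were not. A group of clusters whose leading genes include markers of other classes (clusters 9, 32 and 40) did not decide this: without them the median was 1.48, with 6 members 2-fold higher (6.40% of all genes) and 0 lower (2.59%).

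**Figure D1:**
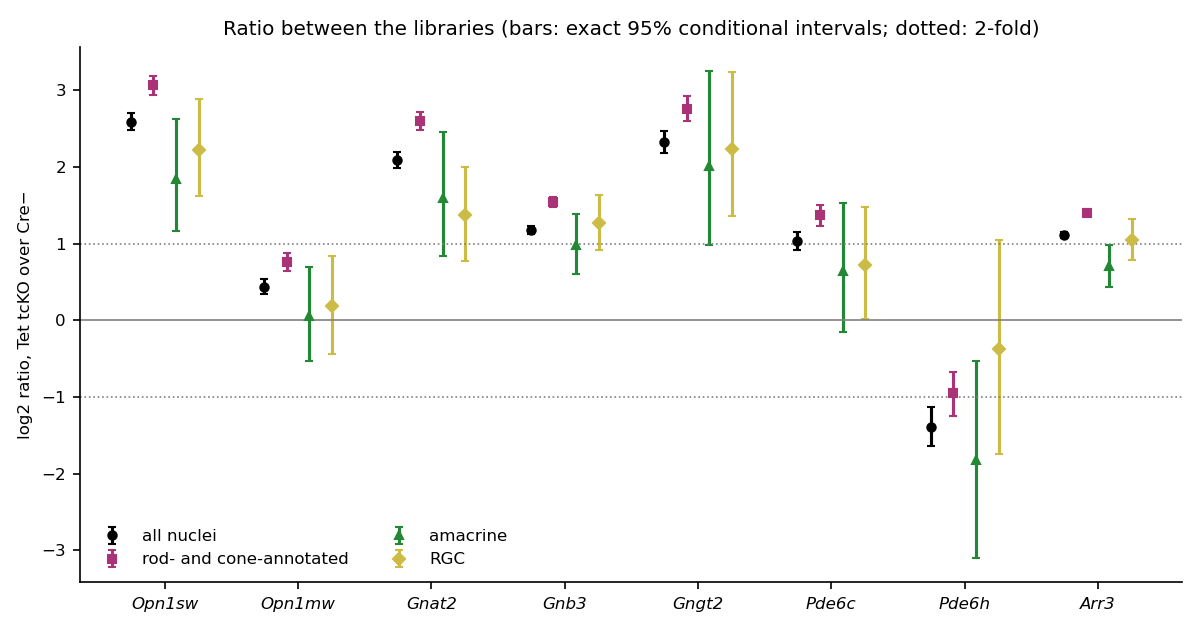
Log2 ratio of CPM, Tet tcKO over Cre−, for each member over all nuclei, in pooled rod- and cone-annotated nuclei and in amacrine and retinal ganglion cell nuclei, with 95% intervals for counting error. In pooled photoreceptors Opn1sw lies highest at 3.07 and Pde6h is the only member under 0, at -0.95.

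Opn1sw, the short-wavelength opsin, showed the widest difference of the 8 over all nuclei and in pooled photoreceptors by summed UMIs. With each nucleus counting a gene only once, Gngt2 was wider, at a photoreceptor log2 ratio of 2.27 against 2.09. Over all nuclei its level was 64.6 CPM in the Cre− library against 391 CPM in Tet tcKO. In pooled photoreceptors these levels were 77.9 and 653 CPM, an 8.38-fold difference with a log2 ratio of 3.07 (95% interval 2.94 to 3.19). Opn1mw, the medium-wavelength opsin, differed less, with 105 and 142 CPM over all nuclei. In photoreceptors it had 123 and 208 CPM, for a ratio of 0.76 (0.64 to 0.88). Both opsins were thus higher in Tet tcKO, but the short-wavelength opsin by far more. Its share of opsin UMIs in photoreceptors was 38.8% in Cre− (Clopper-Pearson interval 36.4% to 41.3%) and 75.8% in Tet tcKO (74.8% to 76.9%). Within Cre− the share was 41.9% in nuclei annotated as cones. These nuclei are part of the pool, and no difference from it is read from this value. The opsin balance differed between the libraries outside photoreceptors too. In retinal ganglion cell nuclei Opn1sw and Opn1mw stood at 20.3 and 26.8 CPM in Cre−, and at 95.2 and 30.5 CPM in Tet tcKO.

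The transducin subunits were all higher in Tet tcKO, by unequal amounts. Gnat2, the cone transducin alpha subunit that carries the GTP, went from 84.7 CPM in Cre− photoreceptors to 514 CPM in the Tet tcKO ones, with a log2 ratio of 2.60 (2.48 to 2.72). Gngt2, the gamma subunit, went from 47.1 to 319 CPM, a ratio of 2.76 (2.60 to 2.92). Gnb3, the beta subunit, which ON bipolar cells also use, went from 304 to 886 CPM and had the smallest ratio of the 3 at 1.54 (1.47 to 1.61). Counted once per nucleus, Gnb3 had a ratio of 0.57 and was not 2-fold higher. The intervals of Gnat2 and Gngt2 overlapped, and that of Gnb3 lay under both.

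The genes of the cone phosphodiesterase moved apart. Pde6c, its catalytic subunit, had 84.1 CPM in Cre− photoreceptors against 217 CPM in Tet tcKO, so its log2 ratio was 1.37 (1.24 to 1.50). Pde6h, its inhibitory subunit, had 39.7 CPM in Cre− against 20.5 CPM in Tet tcKO, a ratio of -0.95 (-1.24 to -0.67). Over all nuclei Pde6h went from 31.8 to 12.2 CPM, a ratio of -1.38 (-1.64 to -1.13). It rested on few UMIs, 301 and 152 in photoreceptors, and 18 of the Cre− UMIs were in 1 nucleus. Without the highest nucleus of each library the photoreceptor ratio was -0.88. In photoreceptors Pde6h was past the 2-fold limit under both other scalings, at -1.15 and -1.12, and with each nucleus thinned to 500 UMIs, at -1.24.

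Arr3, cone arrestin, was the most counted member, with 5720 UMIs in Cre− photoreceptors and 14835 in Tet tcKO. Its level was 755 CPM in the former against 2002 CPM in the latter, with a log2 ratio of 1.41 (1.36 to 1.45). Counting each gene only once per nucleus gave ratios of 0.01 in photoreceptors and 0.03 over all nuclei, with an Arr3 UMI in 57.3% of the Cre− photoreceptor nuclei against 94.3% in Tet tcKO. At an equal depth of 500 UMIs per nucleus, the share of photoreceptor nuclei with an Arr3 UMI was 30.9% and 62.0%.

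The make-up of the members' UMIs differed between the libraries with these ratios. In Cre− photoreceptors Arr3 gave 49.8% of all member UMIs, Opn1mw 8.09%, Opn1sw 5.14% and Pde6h 2.62%. In Tet tcKO photoreceptors Arr3 gave 41.5%, Opn1sw 13.5%, Opn1mw 4.32% and Pde6h 0.426%. Together the 8 genes made up 1515 CPM in Cre− photoreceptors and 4820.3 CPM in Tet tcKO.

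The all-nuclei differences can be split into a piece from the mix of cell classes and a piece from levels within classes. Photoreceptor-annotated nuclei gave 65.8% of UMIs in Cre− and 44.7% in Tet tcKO. For the 7 higher members the class piece therefore ran against the difference, at -15.7% of it for Gnb3 to -43.8% for Opn1mw. For Pde6h it ran with the difference, at 18.9%. The level within photoreceptors alone gave 97.4% of the Opn1sw difference and 54.1% of the Pde6h difference. The split takes the authors' names as given, except that rod- and cone-annotated nuclei were joined as photoreceptors. A shift of nuclei from the rod to the cone name therefore falls in the level piece by construction. Clusters 22, 35, 39 and 41 count as bipolar, though their leading genes by summed UMIs held the cone marker Cngb3 and no bipolar marker. Those of cluster 35 also held the amacrine marker Tfap2a. How far the pieces depend on this naming was not tested.

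The members also varied among the authors' clusters. Rod- and cone-annotated clusters with 50 nuclei or more numbered 15 in Cre− and 8 in Tet tcKO, and 5 of the 8 members had cluster ranges that did not overlap between the libraries, all higher in Tet tcKO, against 3.08% of the 11377 genes tested. Clusters of 1 library share that library and are not replicates. Opn1sw ranged from 34.5 to 113 CPM over the Cre− clusters (median 73.1) and from 402 to 879.6 CPM over the Tet tcKO clusters (median 568). Opn1mw ranged from 78.7 to 156 CPM and from 167 to 237 CPM, Gnat2 from 39.5 to 120.03 and from 195 to 631, Gngt2 from 14.3 to 84.6 and from 207 to 380.01, and Pde6c from 57.2 to 112 and from 159.8 to 259. Gnb3, Arr3 and Pde6h overlapped. Gnb3 ranged from 215 to 439 CPM in Cre− and from 418 to 1068 CPM in Tet tcKO, Arr3 from 519 to 968 and from 911 to 2456, and Pde6h from 19.7 to 72.1 and from 4.27 to 26.4. Within Tet tcKO, cluster 48, with the highest median depth of its photoreceptor clusters at 4354 UMIs, was highest for both opsins, Gnat2, Gngt2, Pde6c and Pde6h, whereas cluster 54, with the lowest median depth at 1074 UMIs, was highest for Arr3 and Gnb3 and lowest for Pde6h. The Pde6h level of cluster 54 rested on 1 UMI in 217 nuclei, with an interval of 0.11 to 23.8 CPM. The part of depth in these cluster differences was not tested. The single large Cre− cone-annotated cluster, cluster 11, was the deepest Cre− photoreceptor cluster (median 3744.5 UMIs) and the highest for both opsins, at 113 and 156 CPM, yet its Gnb3 level of 235 CPM lay under the rod-cluster median of 274 CPM.

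**Figure D2:**
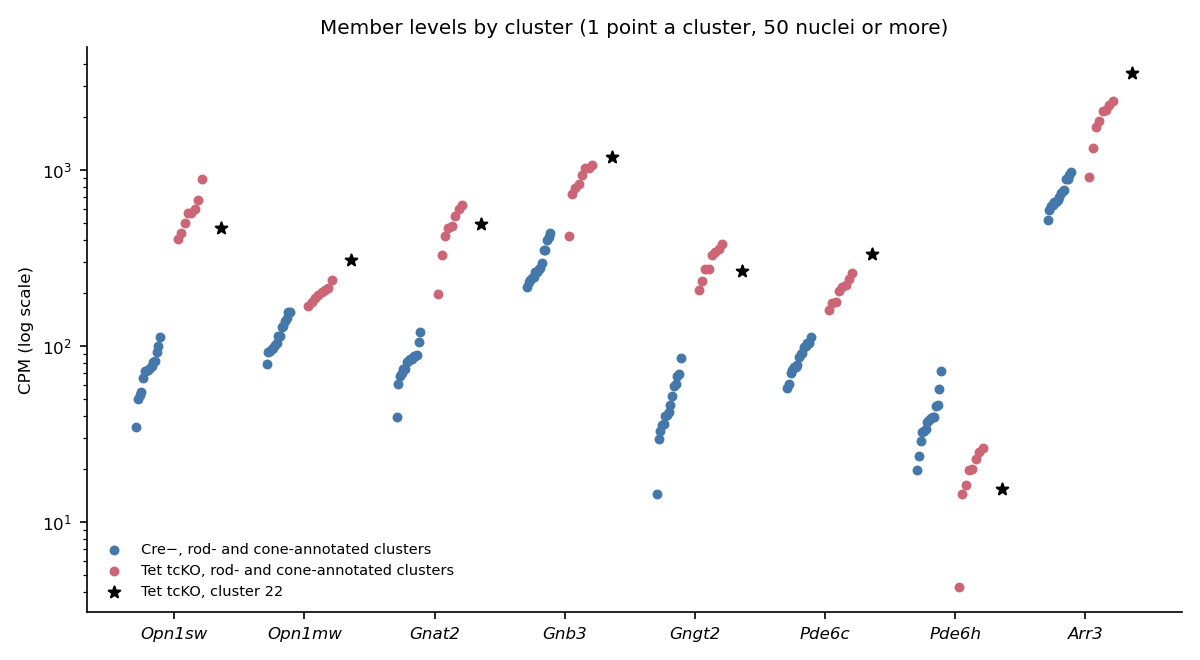
CPM of each member (log axis) in each rod- or cone-annotated cluster of 50 nuclei or more, 15 in Cre− and 8 in Tet tcKO, 1 point per cluster, with a star for the Tet tcKO nuclei of cluster 22. The photoreceptor clusters of the libraries separate for Opn1sw, Opn1mw, Gnat2, Gngt2 and Pde6c, and overlap for Gnb3, Pde6h and Arr3.

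Within Cre−, rod- and cone-annotated nuclei held the members at similar levels. Opn1sw stood at 72.4 and 112 CPM, Opn1mw at 117 and 156 CPM, Pde6c at 81.0 and 104 CPM and Arr3 at 735 and 880.4 CPM, each higher under the cone name. Gnat2 was at 84.2 and 88.2 CPM, Pde6h at 39.9 and 38.8 CPM and Gngt2 at 47.8 and 42.7 CPM, and Gnb3 was lower under the cone name, at 315 and 236 CPM. Since such markers helped to set the names, these are descriptions. With the Cre− side limited to its 265 cone-annotated nuclei, the log2 ratios were 2.54 for Opn1sw, 0.42 for Opn1mw, 2.54 for Gnat2, 1.91 for Gnb3, 2.90 for Gngt2, 1.07 for Pde6c, -0.92 for Pde6h and 1.19 for Arr3, and 6 members stayed 2-fold higher, against 8.48% of all genes. Of these 265 nuclei, 264 lay in cluster 11, whose leading genes by summed UMIs held the rod marker Pde6a and no cone marker. The ratios are therefore not read as cones against cones.

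Member UMIs were also counted in classes that are not photoreceptors. Amacrine and retinal ganglion cell nuclei were taken as the level found in neurons that should lack these genes, since no cluster of those classes was led by markers of another class. Amacrine cluster 27, with 256 of the 403 Cre− amacrine nuclei, had 0 amacrine markers among its leading genes, by summed UMIs or once per nucleus. Its name therefore rests on the authors' annotation alone. In retinal ganglion cell nuclei (567 in Cre−, 704 in Tet tcKO), Opn1sw had 20.3 and 95.2 CPM, with a ratio of 2.23 (1.62 to 2.89). Arr3 had 123 and 255 CPM there, a ratio of 1.05 (0.79 to 1.32). Of the 7 members at 10 CPM or more in these nuclei, 5 were 2-fold higher in Tet tcKO, against 3.53% of all genes, and Pde6h was under 10 CPM in both libraries, at 7.32 and 5.63. In amacrine nuclei (403 and 1043), Opn1sw stood at 32.2 and 116 CPM, Arr3 at 222 and 362 CPM and Pde6h at 19.7 and 5.55 CPM. There 3 members were 2-fold higher and 1 was lower, against 6.44% of genes in each direction. The nuclei of these classes came from different clusters in each library. Of the Cre− amacrine nuclei, 256 lay in cluster 27, against 21 of the Tet tcKO ones, and of the Cre− ganglion cell nuclei 394 lay in cluster 8, against 29. Within single clusters that held 50 nuclei or more of both libraries, 5 of 7 members at 10 CPM or more were 2-fold higher in ganglion cell cluster 2 (8.41% of all genes), 5 of 8 in ganglion cell cluster 31 (10.1%) and 2 of 7 in amacrine cluster 13 (14.7%). In cluster 13 only the interval of Opn1sw left out 0, with 0 UMIs in the Cre− nuclei. The make-up of member UMIs also differed between the libraries outside photoreceptors. Opn1sw gave 6.89% of member UMIs in Cre− and 13.9% in Tet tcKO ganglion cell nuclei, near its 5.14% and 13.5% in photoreceptors of the same libraries. The part of free RNA in the levels of any class was not tested.

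Photoreceptor nuclei held more of each member than retinal ganglion cell nuclei of the same library. In Cre− the excess ran from 3.59-fold for Gnat2 to 6.15-fold for Arr3, and in Tet tcKO from 3.65-fold for Pde6h to 8.44-fold for Gnat2. For Opn1sw it was 3.83-fold in Cre− and 6.86-fold in Tet tcKO, and for Opn1mw 4.57-fold and 6.82-fold. Pde6h had an excess of 5.43-fold (2.82 to 11.99) in Cre− and 3.65-fold (2.03 to 7.21) in Tet tcKO, intervals that overlapped widely and rested on 9 and 12 ganglion cell UMIs. With the ganglion cell level of the same library subtracted, the median photoreceptor ratio of the 8 was 1.56.

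**Figure D3:**
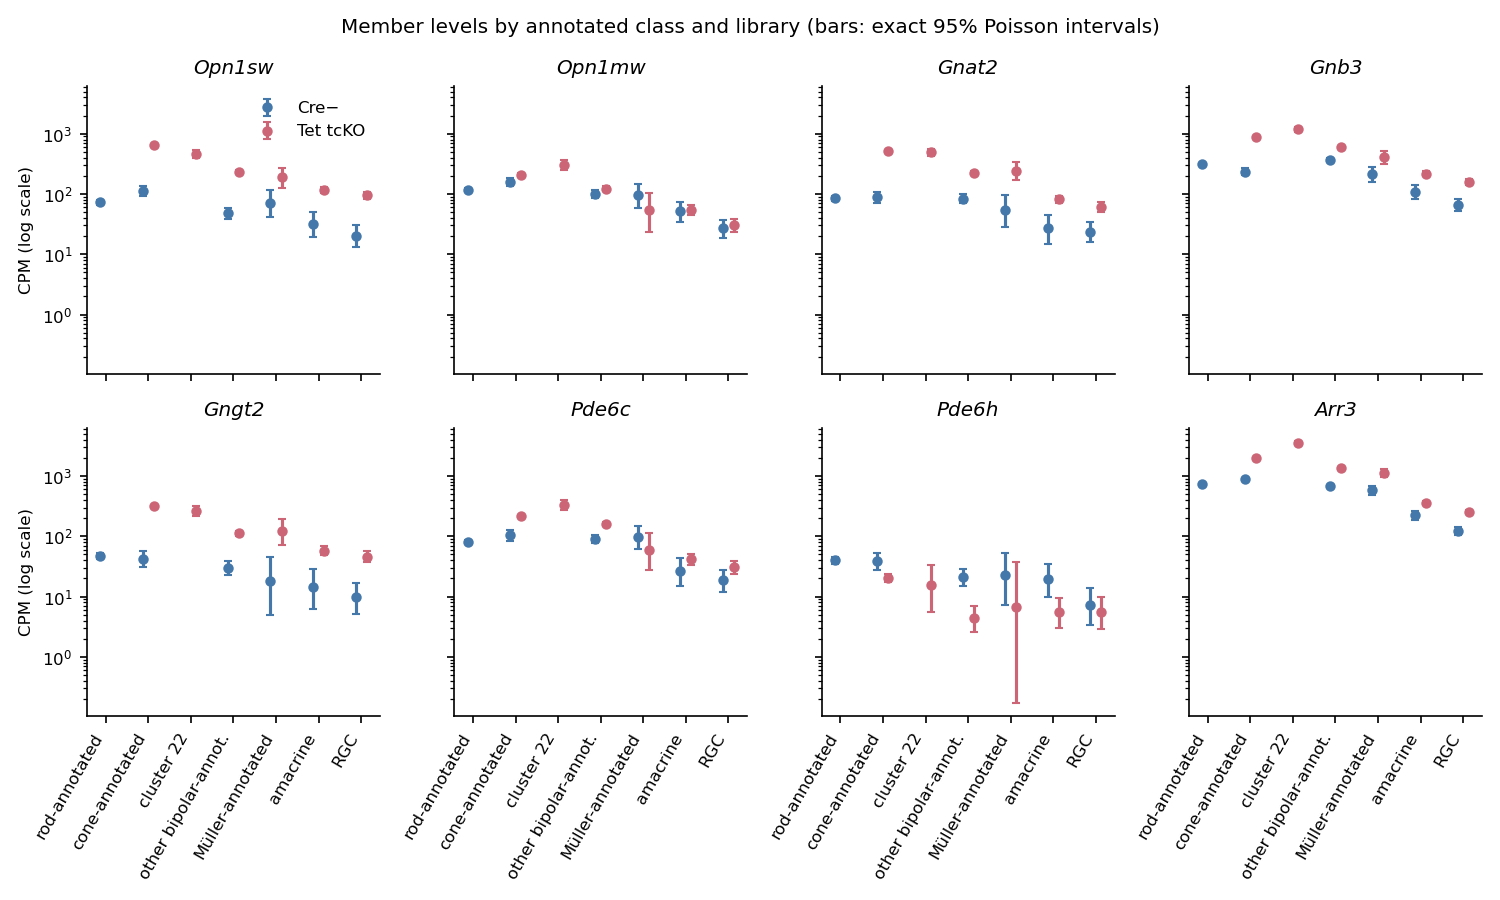
CPM of each member (log axis) by annotated class and library, with exact 95% Poisson intervals; cluster 22 and rods are drawn only for the library that holds 50 or more such nuclei. Rod- or cone-annotated nuclei lie above retinal ganglion cell nuclei for every member, as with Arr3 at 735 CPM in Cre− rod-annotated and 123 CPM in Cre− ganglion cell nuclei.

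Bipolar-annotated nuclei stood between these classes for the opsins. The name covered clusters led by markers of other classes, so levels are given side by side with no comparison between genotypes. Clusters 35, 39 and 41, with 409, 409 and 188 Tet tcKO nuclei, were among those and are kept in the values below. Leaving out cluster 22, Opn1sw was at 47.4 CPM in 666 Cre− nuclei and 235 CPM in 1435 Tet tcKO nuclei, Opn1mw at 99.9 and 123 CPM, and Arr3 at 677 and 1334 CPM. Gnb3, which ON bipolar cells use, was at 372 and 593 CPM. The Cre− level of Gnb3 in bipolar-annotated cluster 7 was 505 CPM (interval 439 to 579), and the highest of the 15 photoreceptor-annotated Cre− clusters had 439 CPM. Müller-annotated nuclei are plotted but not compared, since 99 of 144 lay in cluster 14 in Cre− and 56 of 102 in cluster 37 in Tet tcKO, and clusters 14 and 30 had 0 Müller markers and 1 endothelial marker among their leading genes.

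Cluster 22, annotated as bipolar, held the highest level of 4 members among the 22 Tet tcKO clusters of 50 nuclei or more. Its 214 Tet tcKO nuclei had 3553 CPM of Arr3, 1178 CPM of Gnb3, 330.2 CPM of Pde6c and 305 CPM of Opn1mw. Opn1sw, at 466 CPM, and Gngt2, at 266 CPM, each ranked only 7 of the 22, as did Pde6h at 15.4 CPM, and Gnat2, at 489 CPM, ranked 4. The list of 12 cone markers, 8 of them the members, summed to 15063 CPM in these nuclei. The sums were 1807 CPM for 11 bipolar markers and 5473 CPM for 10 rod markers. The cone sum repeats in part the member levels above and is not separate support. Cngb3, the beta subunit of the cone channel, was among the 10 genes with the highest fold in the cluster by summed UMIs. None of these was a bipolar marker, so the bipolar name was not borne out by the markers. Counted once per nucleus, no marker of any class was among the leading genes of cluster 22. Bipolar-annotated clusters 35, 39 and 41 likewise had Cngb3 and no bipolar marker among their leading genes by summed UMIs. Cluster 35 also had the amacrine marker Tfap2a there, and Tfap2a alone when counted once per nucleus. Only 8 Cre− nuclei fell in cluster 22, with 5645 CPM of Arr3 from 82 UMIs, 895 CPM of Opn1mw from 13 UMIs and 344 CPM of Opn1sw from 5 UMIs. Adding cluster 22 to the photoreceptors left 6 members 2-fold higher (6.38% of all genes) and 0 lower (2.49%), with a median of 1.50.

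Nuclei rich in these transcripts were few, and most were not annotated as cones. At 10 or more member UMIs per 1000, a limit chosen after the values were seen, there were 14 nuclei in Cre− and 63 in Tet tcKO. In Cre−, 9 were annotated as bipolar, 5 of these in cluster 22, and 5 as rods. Of the 265 cone-annotated Cre− nuclei, 0 reached the limit (3 counts in place of 0 would be a share of 1.13%). These 265 had a median depth of 3736 UMIs, against 654 to 1751 UMIs in the 10 richest Cre− nuclei. Their median of 1.59 member UMIs per 1000 lay above the 1.28 of rod-annotated nuclei. The part of depth in reaching the limit was not tested. Of the 63 rich Tet tcKO nuclei, 48 were annotated as bipolar, 33 of these in cluster 22, and 11 as cones. Arr3 gave most of their member UMIs, 911 of 1284 in Tet tcKO, and the opsins were near parity there at 48 Opn1sw and 55 Opn1mw UMIs. The richest Tet tcKO nucleus, in cluster 22, held 65 member UMIs of 1882, with 35 of Arr3, 13 of Opn1mw, 10 of Pde6c and 5 of Opn1sw. The richest Cre− nucleus, in rod-annotated cluster 32, held 30 of 706, 26 of them Arr3. A Cre− nucleus of cluster 45 held 29 member UMIs, 18 of Pde6h and 1 of Arr3.

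Outside such nuclei the members were spread thinly over many. With every nucleus thinned to 500 UMIs, 47.1% of Cre− photoreceptor nuclei held no member UMI, against 9.66% in Tet tcKO. The share with 3 or more of the 8 members was 1.73% in Cre− and 26.7% in Tet tcKO, and 35.0% in the Tet tcKO nuclei of cluster 22. Retinal ganglion cell nuclei of the same libraries, with median depths of 1601 and 2381 UMIs before thinning, gave 0.353% and 0.710%.

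S and M opsin transcripts met in the same nucleus in Tet tcKO about as often as their single shares multiply to. After thinning to 500 UMIs, 3.91% of Cre− photoreceptor nuclei held an Opn1sw UMI and 5.69% an Opn1mw UMI. Both were found in 11 of 5479 nuclei, 0.201% (interval 0.100% to 0.359%), where the product of the single shares was 0.222%. In Tet tcKO the single shares were 27.1% and 9.97%, and 86 of 3231 nuclei held both, 2.66% (2.13% to 3.28%), with a product of 2.70%. An Opn1mw UMI was present in 9.83% of Tet tcKO nuclei with Opn1sw and in 10.0% of those without it, and in 5.14% and 5.72% in Cre−. The intervals of nuclei with and without the S opsin transcript overlapped in both libraries, so at this depth no difference was detectable. The share of nuclei with an Opn1sw UMI in retinal ganglion cells was 1.76% in Cre− and 4.26% in Tet tcKO, and 0 of 567 and 0.142% of 704 held both opsins.

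The shares were larger at greater depth. Thinned to 1000 UMIs, which left 3004 and 3128 photoreceptor nuclei, both opsins were found in 0.899% of Cre− nuclei (product 0.868%) and 8.73% of Tet tcKO nuclei (product 8.93%). Without thinning they were found in 2.24% (product 1.50%) and 27.3% (product 24.6%), where deep nuclei hold more of each transcript. In the 8 Tet tcKO photoreceptor clusters the share with both, after thinning to 500 UMIs, ran from 1.81% to 4.65%, highest in cluster 48. Cluster 22 in Tet tcKO had 5.14% (2.59% to 9.01%) against a product of 3.21%, and its Opn1sw share of opsin UMIs was 60.5% (54.7% to 66.0%), under the 75.8% of the photoreceptors of that library.

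Among photoreceptor-annotated nuclei with 5 or more opsin UMIs, most held both opsins. Tet tcKO had 322 such photoreceptor nuclei, of which 264 held both opsins, 58 only Opn1sw and 0 only Opn1mw, and Opn1mw was the larger count in 11. Cre− had 6, all with both, and Opn1mw was the larger count in 3. Among bipolar-annotated Tet tcKO nuclei there were 48, with 36 holding both, 8 only Opn1sw and 4 only Opn1mw, and Opn1mw was the larger count in 15. The 6 bipolar-annotated Cre− nuclei differed, with 4 holding only Opn1mw and 2 holding both. Photoreceptor nuclei held at most 16 Opn1sw UMIs in Tet tcKO and 4 in Cre−. Such counts include the level found in every class, so they do not sort nuclei into opsin types.

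**Figure D4:**
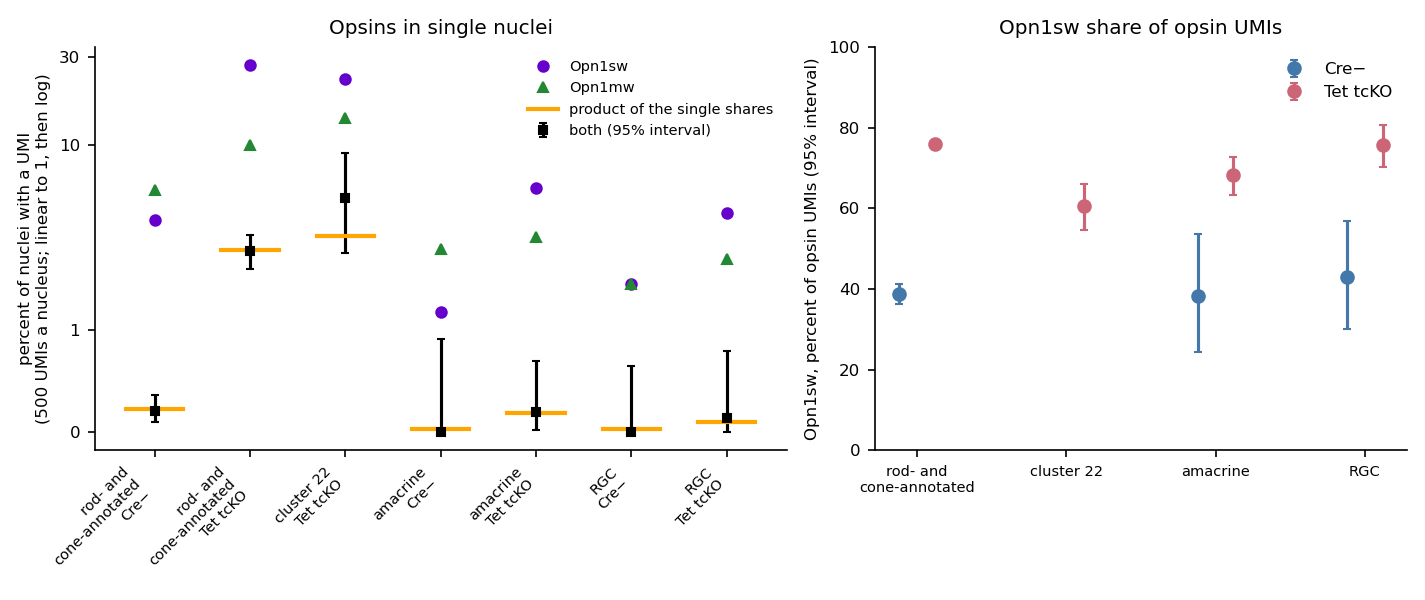
Left, percent of nuclei (axis linear to 1, then log) with Opn1sw, Opn1mw or both after thinning to 500 UMIs, by class and library, with a line at the product of the single shares; right, Opn1sw as a percent of opsin UMIs, with 95% Clopper-Pearson intervals. In rod- and cone-annotated nuclei the share with both was 0.201% in Cre− against 2.66% in Tet tcKO, next to products of 0.222% and 2.70%.

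Each cone gene of the cascade was set against its rod paralogue within the same nuclei. The share of UMIs from the cone gene in photoreceptors went from 6.42% in Cre− to 48.7% in Tet tcKO for Gnat2 with Gnat1, from 24.9% to 69.3% for Gnb3 with Gnb1 and from 4.65% to 24.8% for Gngt2 with Gngt1. It went from 9.08% to 43.1% for Pde6c with Pde6a and from 22.8% to 49.6% for Arr3 with Sag. Pde6h with Pde6g was the exception, at 7.50% (6.71% to 8.36%) and 9.13% (7.79% to 10.6%), with both genes lower in Tet tcKO. Summed over the 6 pairs the cone share was 15.8% and 47.2%. In the 214 Tet tcKO nuclei of cluster 22 it was 56.1%. Retinal ganglion cell nuclei gave 14.4% and 40.9%, and amacrine nuclei 18.4% and 42.5%, so the summed share moved with the library in each of these classes.

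**Figure D5:**
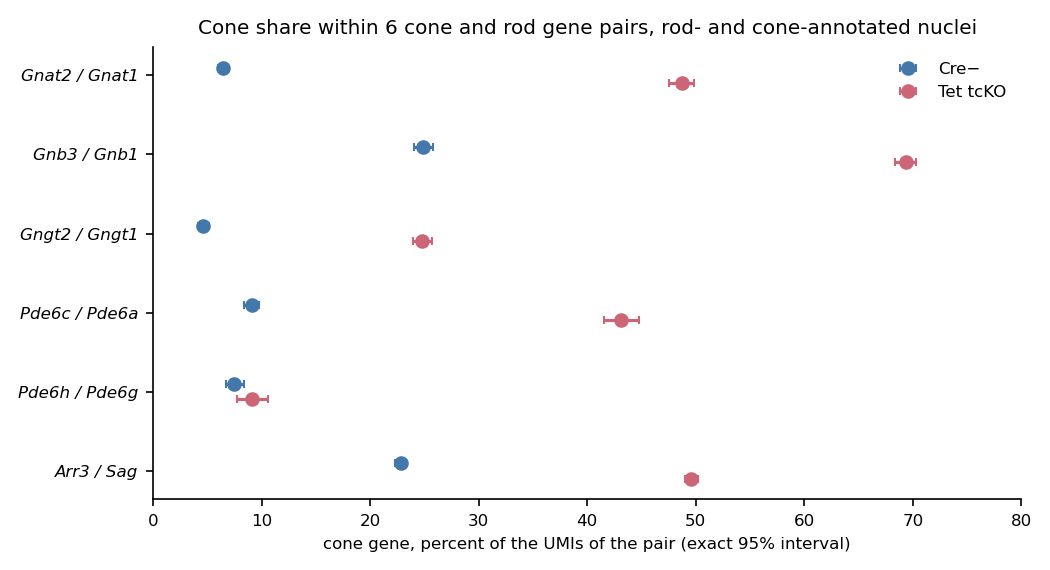
Share of UMIs from the cone gene in each of 6 cone and rod paralogue pairs, in pooled rod- and cone-annotated nuclei of each library, with exact 95% Clopper-Pearson intervals. The share is higher in Tet tcKO for Gnat2, Gnb3, Gngt2, Pde6c and Arr3, and the intervals of Pde6h overlap.

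The rod counterparts went down where the cone genes went up, with exceptions. Of 7 rod genes (Gnat1, Gnb1, Gngt1, Pde6a, Pde6b, Pde6g and Sag), 5 were 2-fold lower in Tet tcKO photoreceptors, against 2.58% of all genes. There 0 were higher, against 6.67%, and the median log2 ratio was -1.23. Pde6a, a catalytic subunit of the rod phosphodiesterase, went from 842 to 287 CPM, a ratio of -1.55. Pde6g, the rod inhibitory subunit, went from 489.8 to 204 CPM, a ratio of -1.26. Gngt1, the rod transducin gamma subunit, stood at 966 and 967 CPM, a ratio of 0.00 (-0.05 to 0.05) that falls under 0 with the other scalings, which shift photoreceptor ratios by -0.19 and -0.17. Sag, rod arrestin, went from 2552 to 2034 CPM, a ratio of -0.33. Of the same 7 genes, 4 were 2-fold lower in retinal ganglion cell nuclei (3.20% of all genes) and 5 in amacrine nuclei (6.44%). The medians there were -1.31 and -1.36, so lower values were not limited to photoreceptor-annotated nuclei. The part of free RNA in the values of these classes was not tested.

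A further list held 12 genes of the cone light response, many of them shared with rods. Of the 12, 3 were 2-fold higher in Tet tcKO photoreceptors (6.67% of all genes) and 5 were lower (2.58%). The higher ones were the cone channel subunits Cngb3, from 236 to 2041 CPM (log2 ratio 3.11), and Cnga3, from 4.49 to 15.1 CPM (1.75), and the exchanger gene Slc24a2, from 134 to 269.8 CPM (1.01). The call of Slc24a2 was lost with the other scalings and, at 0.99, without clusters 9, 32 and 40. The latter left 2 of the 12 higher (6.40% of all genes). The lower ones were the opsin kinase Grk1 at -1.29, the guanylate cyclase Gucy2f at -1.32 and recoverin, Rcvrn, at -1.21. Also lower were the cyclase activators Guca1a at -1.02 and Guca1b at -1.19. The genes of the complex that speeds GTP hydrolysis, Rgs9, Rgs9bp and Gnb5, had ratios of 0.00, 0.00 and -0.83, and the cyclase Gucy2e one of 0.08. Cngb3 had the only ratio among these 12 above that of Opn1sw.

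Across 47 units of library and cluster with 50 nuclei or more, 7 of the members followed each other and Pde6h did not. Pearson correlations of log2(CPM + 1) between those 7 lay between 0.63 and 0.95, and those of Pde6h with them between -0.11 and 0.40. Units of 1 library share its preparation and depth, so these are descriptions. Among 8218 genes, those most like Arr3 were Cdcp3 (0.96), Podxl (0.96) and Gnb3 (0.95), and those most like Pde6c were Arr3 (0.94), Podxl (0.94) and Cdcp3 (0.93). Opn1mw was most like Egflam (0.93), Pde6c (0.92) and Podxl (0.92), whereas Opn1sw was most like Cabp5 (0.90), Dynlt1a (0.90) and Smug1 (0.89), with no member among them. Gnat2 and Gngt2 were each other's nearest gene (0.92), followed by Dgkd (0.91) and Ccdc136 (0.91) for Gnat2 and by Jam3 (0.90) and Ccdc136 (0.89) for Gngt2. Gnb3 was most like Arr3 (0.95), Cdcp3 (0.93) and Dgkd (0.93). Pde6h was most like the rod genes Gnat1 (0.85), Pde6g (0.85) and Rom1 (0.84), and no member was among its nearest genes.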

How the data were processed

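Reads of the PIPseq 3′ libraries were, per the labels, processed with pipseeker v3.3.0 and aligned to GRCm39. Which annotation release was used is not stated. The authors removed ambient RNA with CellBender at a cell probability of 0.99, and in Monocle3 filtered nuclei on transcript number (between 500 and 10000) and mitochondrial share (below 20%). Values in the deposited matrices are whole UMI counts left by these steps. The deposited mitochondrial percent is the authors' value. The deposited gene table gives a signal per genotype, the mean of counts per 10000, and was used only for gene identity; the deposited size factor is a ratio and was not used. Cluster numbers and cell type names are the authors'. Ambient RNA left after that step, and doublets, for which no caller was run, can place cone transcripts in other nuclei.

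UMIs were summed per population and library and scaled to 1000000 UMIs of all genes (CPM). Intervals are exact at 95%: Poisson for levels, conditional for ratios and Clopper-Pearson for shares. A count of 0 was set to 3 counts in a ratio. A gene was called at 2-fold or more if either library reached 10 CPM. Nuclei were thinned once at random to 500 UMIs. Class names were checked by the markers among the 10 genes with the highest fold in each cluster. Scalings by edgeR 4.0.16 (TMM) and DESeq2 1.42.0 (median of ratios) in R 4.3.3 were alternatives, and no count test was run. Other values came from scipy 1.17.1, numpy 2.4.6 and pandas 2.3.3 under Python 3.11.15, in steps tested on simulated data. Named genes were the 8 members, 7 rod counterparts, 12 other genes of the cone light response and, for each member, the 3 genes most correlated with it over clusters. The members and lists were chosen with earlier results of these data known. Genome positions and promoters were read from GRCm39 with GENCODE, and the promoter is the 250 bases before the canonical start.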

Additional observations from a re-analysis of the deposited data

How the results depend on the processing

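All 144 alternative values of single members kept the sign of their log2 ratio, and of 227 alternative values in all 74 moved outside the interval or limit of the reported value and 0 reversed. The median ratio of the 8 members over all nuclei was 1.04 with TMM and 1.04 with median-of-ratios factors. It was 0.65 when a nucleus counted each gene only once, where 3 members were 2-fold higher (share of all genes not given). In photoreceptors it was 1.28, 1.31 and 0.83 under the same settings and 1.56 with the ganglion cell level subtracted. Pde6h became the 1 member 2-fold lower there with TMM, with median-of-ratios factors, after thinning to 500 UMIs, without the 10% of nuclei with the most UMIs, and with the ganglion cell level subtracted. These scalings shift all ratios by -0.10 and -0.11 over all nuclei. The share with both opsins was 2.24% without thinning, 0.899% at 1000 UMIs and 0.377% in cone-annotated nuclei in Cre−, and 27.3% and 8.73% for the first and second of these in Tet tcKO. The Opn1sw share of opsin UMIs was 41.9% in Cre− cone-annotated nuclei and 65.9% in Tet tcKO under single counting. The cone share of paralogue UMIs in Cre− was 23.2% under single counting, 16.2% without the 10% deepest nuclei, 13.9% in cone-annotated nuclei and 16.2% with the ganglion cell level subtracted, and in Tet tcKO 46.4% under single counting, 47.8% without the deepest nuclei and 48.4% with the subtraction. Except for single counting and the thinning depth, by construction, the cause of these shifts was not tested. Of all genes, 632 were called over all nuclei at 10 CPM or more and 1868 at 1 CPM or more. Adding cluster 22, or leaving out clusters 9, 32 and 40, was chosen after seeing the data and left the calls of the 8 members as they were. No paired analysis was possible because each genotype is 1 library and no replicate number is shared. Leaving out a replicate was not possible for the same reason. Depth limits Pde6h, with 301 photoreceptor UMIs in Cre−, Cnga3, with 34, and the opsin pairs there, with 11 nuclei.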
